A study of Mus musculus with 4 samples.

Results

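The EIF1A-like genes are a multicopy family of mouse genes that encode close relatives of the translation initiation factor eIF1A. The listed members are BB287469, Gm2016, Gm2022, Gm2056, Gm4027, Gm5662 and Gm8300, chosen by gene symbol. Of these 7 genes, 6 were matched to one of the 43496 Ensembl gene rows of the count table, and Gm2022 was not analysed here. The table also holds 2277 single genomic copies of MERVL, an endogenous retrovirus that the labels call MuERVL, which makes 45773 features in all.

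RNA-seq was made from E14 mouse embryonic stem cells, a pluripotent line whose strain is labelled 12910la. Cells with a random shRNA (genotype labelled wild type) were compared with cells with an shRNA against MERVL (genotype labelled MERVL knocked down). Both groups grew on gelatin in serum with LIF, received 1000 ng of pSuper puro plasmid, and were kept in puromycin at 1 µg/ml for 4 days, starting 24 h after transfection. Each group had 2 libraries. No label says that replicates were grown apart, so the p-values reflect library-to-library spread that may be technical. The design asks what changes in the transcriptome when MERVL is knocked down.

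Canonical eIF1A sits on the small ribosomal subunit, where it helps the initiation complex scan an mRNA and select the start codon. The mouse genome carries it as Eif1a and the X-linked Eif1ax. Many further EIF1A-like copies are transcribed in the early mouse embryo, at the time when its own genome is switched on. In embryonic stem cell cultures, a small and changing fraction of cells turns on the same program, with MERVL and the Zscan4 genes among its best known transcripts. EIF1A-like genes are often listed with them.

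All 7 listed genes lie on chromosome 12 within 760.2 kb (GRCm38, GENCODE annotation). Gm8300 (ENSMUSG00000079034) lies at chr12:87514316-87518266 on the plus strand and Gm4027 (ENSMUSG00000092019) at chr12:87618869-87622955 on the plus strand. BB287469 (ENSMUSG00000079031) follows at chr12:87816577-87820676 and Gm2016 (ENSMUSG00000072905) at chr12:87874072-87877859, both on the plus strand. Gm2056 (ENSMUSG00000095717) is annotated at chr12:88027004-88027438 on the plus strand as coding sequence only. Gm5662 (ENSMUSG00000079029), at chr12:88270640-88274500, is the only measured member on the minus strand.

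Each of the 7 genes encodes 144 residues in 1 coding exon. Across the 21 pairs of listed genes, between 0 and 8 of the 144 residues differed, with a median identity of 97.2%. The coding sequences of BB287469 and Gm4027 were identical. Against Eif1ax, each gene differed at 9 to 14 residues, an identity of 90.3% to 93.8%, and at 64 to 71 of 432 coding bases. Between members, the base differences numbered 0 to 14.

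The copies are so alike that short reads can fit several of them. The stretch of coding bases 187 to 276 is shown because it holds 7 of the 20 coding positions at which the 7 genes vary. It is given 5′ to 3′ on the coding strand (GRCm38), and capitals mark bases that differ from the most common base of the 7 genes at that position.
Gm8300 (chr12:87517083-87517172, plus strand): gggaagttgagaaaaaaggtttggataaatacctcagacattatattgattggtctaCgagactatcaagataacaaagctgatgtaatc
Gm4027 (chr12:87621786-87621875, plus strand): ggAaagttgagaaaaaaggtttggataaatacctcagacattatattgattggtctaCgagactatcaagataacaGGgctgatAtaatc
BB287469 (chr12:87819507-87819596, plus strand): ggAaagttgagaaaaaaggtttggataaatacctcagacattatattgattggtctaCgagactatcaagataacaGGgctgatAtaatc
Gm2016 (chr12:87876771-87876860, plus strand): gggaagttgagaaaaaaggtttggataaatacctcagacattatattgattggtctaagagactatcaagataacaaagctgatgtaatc
Gm2022 (chr12:87895556-87895645, plus strand): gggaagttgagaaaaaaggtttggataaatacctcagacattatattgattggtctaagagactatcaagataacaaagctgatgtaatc
Gm2056 (chr12:88027190-88027279, plus strand): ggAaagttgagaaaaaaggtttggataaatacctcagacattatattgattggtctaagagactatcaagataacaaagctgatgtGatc
Gm5662 (chr12:88271713-88271802, minus strand): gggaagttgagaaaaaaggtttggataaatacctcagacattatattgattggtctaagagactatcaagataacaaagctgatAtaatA
Gm4027 and BB287469 share all 5 of their marked bases here, whereas Gm2016 and Gm2022 have none and are identical to each other in this window.

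How far a member can be told from its relatives was measured on its transcript. Of all 100-base windows of Gm8300, 89.2% occurred in no other annotated gene. The share was 49.4% for Gm2056, 41.6% for Gm5662 and 35.3% for Gm2016. It was only 8.68% for BB287469 and 8.62% for Gm4027, so their separate values depend most on how reads of shared sequence were divided. The shares and their order changed with window length. With 50 bases they were 73.4% for Gm8300, 22.1% for Gm5662, 18.7% for Gm2016 and 12.95% for Gm2056. With 150 bases Gm2056 reached 93.0%, while BB287469 and Gm4027 stayed lowest at 11.9% and 11.8%. Between 19.1% and 20.8% of the deposited counts of a library were not whole numbers. The values of single copies are therefore uncertain, and the sum over the family and the values of Gm8300 are less so.

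RefSeq promoters (GRCm38.p6) were at hand for 2 of the 7 members, BB287469 and Gm4027. They are shown because genes that vary together are compared here and because this pair shares its upstream sequence. The 250 bases before each start are given 5′ to 3′ on the plus strand, and capitals mark a match to GATTNAAT.
BB287469 (chr12:87816327-87816576): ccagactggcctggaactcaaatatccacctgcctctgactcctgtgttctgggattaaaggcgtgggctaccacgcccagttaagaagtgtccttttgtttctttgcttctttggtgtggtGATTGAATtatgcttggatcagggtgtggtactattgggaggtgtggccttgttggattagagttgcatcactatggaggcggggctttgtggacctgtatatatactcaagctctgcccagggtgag
Gm4027 (chr12:87618659-87618908): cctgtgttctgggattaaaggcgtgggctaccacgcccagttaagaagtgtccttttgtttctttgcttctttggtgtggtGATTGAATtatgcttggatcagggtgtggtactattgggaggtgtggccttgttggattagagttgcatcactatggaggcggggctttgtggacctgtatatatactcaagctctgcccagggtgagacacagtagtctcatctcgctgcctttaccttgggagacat
Laid on each other at the capitals, the promoter windows of the pair, from 250 bases before to 50 after the start, overlapped by 259 bases, of which 258 were identical. The match begins at position -128 of BB287469 and -169 of Gm4027, counted from the annotated start. These windows were searched on both strands. GATTNAATC, the core of the motif of the 2-cell transcription factor DUX, was in neither, against 0.268% of 32851 mouse promoters. TATAAA was in neither, against 13.6% of all promoters. The shorter GATTNAAT, which overlaps GATTNAATC and was chosen after the promoters were read, was in both members and in 1.96% of all promoters. It was also in the promoters of Gm21319, an EIF1A-like gene that is not listed, and of Gm2046, a cluster gene outside the list. Over 150 bases that begin just before the match, Gm2046 was 98.7% and Gm21319 83.4% identical to BB287469. The matches in these alike promoters are therefore not independent of each other. Gm21936 and Gm6803, EIF1A-like genes too, lacked GATTNAAT, and Gm6803 had TATAAA. Their annotated starts lie close to their coding sequence, unlike those of BB287469 and Gm4027. The windows thus cover different parts of the genes, and the lack of a match is no contrast between matched promoters.

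Total estimated counts were 15496921 and 11628887 in the random shRNA libraries and 16067854 and 14570056 in the MERVL shRNA libraries. The summed MERVL copies, the target of the shRNA, took 4662 CPM (estimated counts per 1000000, TMM-scaled) in random shRNA replicate 1 and 1434 in replicate 2. With MERVL shRNA they took 1163 CPM in replicate 1 and 574 in replicate 2. Both MERVL shRNA libraries were below both controls, but random shRNA replicate 2 lay only 1.23-fold above MERVL shRNA replicate 1, while the controls differed 3.25-fold. Of 9 embryonic stem cell markers, 9 were above 10 CPM in all 4 libraries.

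The 6 measured EIF1A-like genes together gave 1051 and 290.2 CPM in the random shRNA libraries and 208 and 131 CPM in the MERVL shRNA libraries. The means were 670.4 ± 538 and 169 ± 54.0 CPM (SD, n = 2 each), a 3.96-fold higher mean with random shRNA. The 2 groups did not overlap. The gap between the controls, 3.62-fold, was nevertheless larger than the 1.40-fold gap between the lower control and the higher MERVL shRNA library. As shares of all counts, the sum took 0.106% (95% Wilson interval 0.105% to 0.108%) and 0.0298% (0.0288% to 0.0308%) in random shRNA replicates 1 and 2. It took 0.0206% (0.0199% to 0.0213%) and 0.0127% (0.0121% to 0.0133%) in MERVL shRNA replicates 1 and 2. These intervals cover counting error only, and none of the 4 overlapped another.

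Gm5662 gave 424 and 116 CPM with random shRNA and 81.9 and 48.7 CPM with MERVL shRNA. Its log2 fold change, MERVL against random shRNA, was -2.05 ± 0.59 (SE), with an adjusted p of 0.329 by edgeR's quasi-likelihood test with Benjamini-Hochberg adjustment. Random shRNA replicate 1 stood far above the other 3 libraries, and the groups did not overlap.

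Gm2016 gave 306 and 85.5 CPM with random shRNA and 59.9 and 44.1 CPM with MERVL shRNA. Its log2 fold change was -1.91 ± 0.55 (edgeR adjusted p = 0.329). Its MERVL shRNA libraries were the closest pair of the 6 genes, 1.36-fold apart, against 3.58-fold between the controls.

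Gm8300, the member with the most sequence of its own, gave 208 and 59.8 CPM with random shRNA. With MERVL shRNA it gave 45.4 and 27.02 CPM. Its log2 fold change was -1.89 ± 0.57 (edgeR adjusted p = 0.329). The family sum, whose log2 ratio of means was -1.99, contains this gene, at 19.8% to 21.9% of its counts. Their nearness is therefore no check on the effect of shared reads.

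Gm4027 gave 51.9 and 13.8 CPM with random shRNA and 10.4 and 5.28 CPM with MERVL shRNA. Its log2 fold change was -2.07 ± 0.63 (edgeR adjusted p = 0.329). BB287469, which shares its whole coding sequence, gave 45.2 and 12.2 CPM with random shRNA and 7.72 and 4.55 CPM with MERVL shRNA. Its log2 fold change of -2.23 ± 0.61 (edgeR adjusted p = 0.329) was the most negative of the 6 genes. The estimates of this pair lay within 1 SE of each other. Both genes were measured in the same libraries and share their coding sequence, so this SE is not the error of their difference.

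Gm2056, annotated as coding sequence only, had the lowest counts: 238 and 33 estimated counts with random shRNA and 38.0 and 23.4 with MERVL shRNA. In CPM these were 15.2 and 2.77 against 2.39 and 1.66, a log2 fold change of -2.16 ± 0.76 (edgeR adjusted p = 0.337). Its controls were 5.49-fold apart, the widest of the 6 genes, and random shRNA replicate 2 was only 1.16-fold above MERVL shRNA replicate 1.

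**Figure D1:**
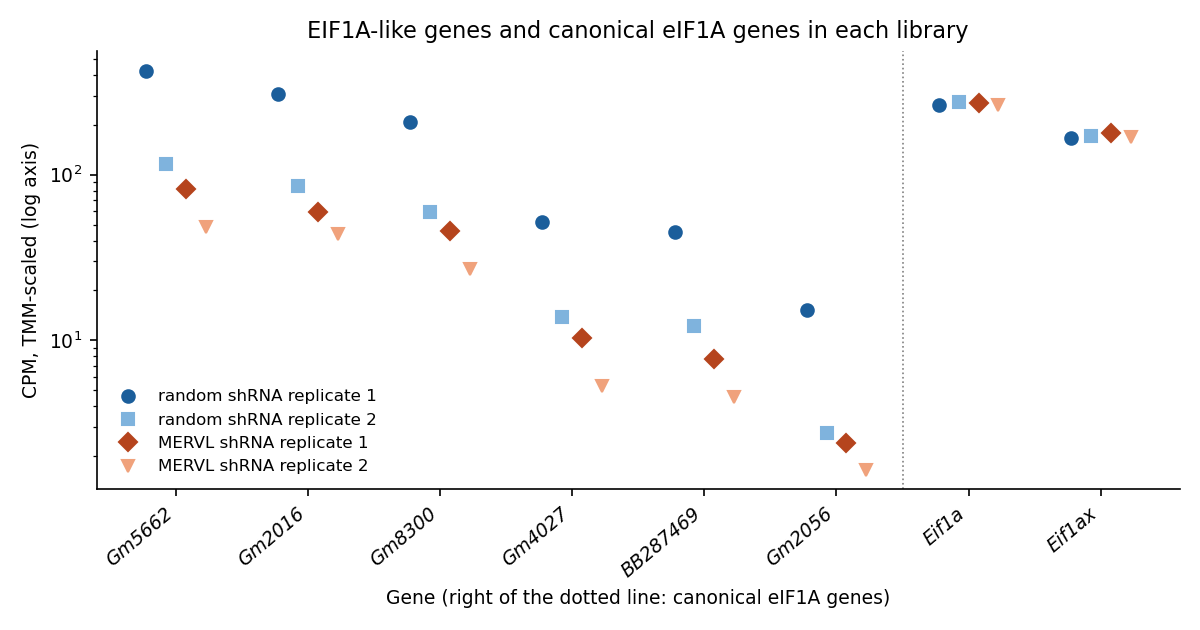
TMM-scaled CPM of the 6 measured EIF1A-like genes and of Eif1a and Eif1ax on a log axis, 1 point per library. In each EIF1A-like gene random shRNA replicate 1 stands highest, from 15.2 CPM in Gm2056 to 424 CPM in Gm5662, while Eif1a and Eif1ax are level across the 4 libraries.

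Fold changes of the 6 genes ran from -2.23 to -1.89, with a median of -2.06, beside a median of -0.01 over all 16353 features tested. None of the 6 genes passed the edgeR quasi-likelihood test at an adjusted p of 0.05, and the test called 0.0% of all features lower and 0.00612% higher. At an unadjusted p under 0.05, 6 of 6 were lower, where 8.92% of all features were. The 6 genes share sequence and libraries, so their values are not independent of each other. DESeq2 called 1 of the 6 (Gm2056, adjusted p = 0.0482), beside 1.13% of the features it gave an adjusted p. Limma-voom called 0 of the 6, and 0.0% of all features in either direction. With no filter on low counts, edgeR called 6 of 6, beside 3.76% of all features. Both MERVL shRNA libraries lay below both controls in 6 of 6 genes and in 24.0% of all features. A log2 fold change at or below that of Gm8300, the highest of the 6, was reached by 2.70% of features.

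The size of the difference depended on the controls. Random shRNA replicate 1 was above replicate 2 in 6 of 6 genes, by 3.49-fold in Gm8300 to 5.49-fold in Gm2056. A ratio of at least 3.49 between these controls was reached by 2.22% of all features. MERVL shRNA replicate 1 was above replicate 2 in 6 of 6 genes too, by 1.36-fold to 1.96-fold. From random shRNA replicate 2 to MERVL shRNA replicate 1, the drop was only 1.16-fold to 1.59-fold. Without random shRNA replicate 1, the log2 ratio of the family sum moved from -1.99 to -0.77. Gene estimates then ran from -0.98 in BB287469 to -0.45 in Gm2056, and edgeR called 5 of the 6 genes, all but Gm2056 (adjusted p = 0.551), beside 7.28% of all features. Without random shRNA replicate 2 the estimates ran from -2.89 to -2.50 and edgeR called 6 of 6, beside 17.4% of all features. In both fits the lone control is assumed to vary like the other group.

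In bulk RNA, fewer cells in the 2-cell-like state and less RNA per such cell cannot be told apart. Zscan4c, an embryonic gene of that state, gave 438 and 124 CPM with random shRNA and 101 and 53.8 CPM with MERVL shRNA (log2 fold change -1.86 ± 0.59, edgeR adjusted p = 0.329). Zfp352, another gene of that state, gave 6.89 and 2.10 CPM against 1.38 and 0.43 CPM (-2.30 ± 0.75). The order of the libraries was the same as for the EIF1A-like genes. For each count of Zscan4c, the family sum gave 2.40 and 2.34 counts in the controls and 2.05 and 2.44 with MERVL shRNA. Per 100 counts of MERVL copies it gave 22.5 and 20.2 counts in the controls and 17.8 and 22.9 with MERVL shRNA. Both ratios overlapped between the groups, while the sum itself spanned 1051 to 131 CPM.

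The summed level of 8 fibroblast markers also moved with the groups, at 30.9 to 41.4 CPM with random shRNA and 15.3 to 18.5 CPM with MERVL shRNA. Most of this sum was Thy1, with 23.1 and 28.9 CPM in the controls and 8.67 and 6.88 CPM with MERVL shRNA, and Pdgfrb, with 5.42 and 11.0 CPM against 9.15 and 7.59 CPM. Col1a1 gave 1.98 and 1.26 CPM against 0.63 and 0.85 CPM, Col1a2 was below 1 CPM, and Col3a1, Postn, Lum and Dcn were at 0 in all 4 libraries. The sum of 10 germ layer markers was 27.3 to 29.6 CPM with random shRNA and 31.6 to 31.9 CPM with MERVL shRNA. This sum joins genes that moved in opposite directions. Sox1 gave 5.23 and 3.27 CPM with random shRNA and 12.9 and 13.4 CPM with MERVL shRNA. Eomes gave 9.3 and 14.55 CPM against 6.69 and 8.16 CPM. T, Foxa2, Cdx2 and Hand1 were below 1 CPM. The sum of the 9 embryonic stem cell markers was 7624 to 8728 CPM with random shRNA and 8925 to 9667 CPM with MERVL shRNA. The part of these levels in the EIF1A-like difference was not tested.

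The members kept similar proportions while their total varied. Gm5662 supplied 40.4% and 40% of the family counts in the random shRNA libraries and 39.4% and 37.1% in the MERVL shRNA libraries. Gm8300 supplied 19.8% and 20.6% in the controls and 21.9% and 20.6% with MERVL shRNA. Gm2016 supplied 29.1% and 29.5% in the controls and 28.8% in MERVL shRNA replicate 1. In MERVL shRNA replicate 2 its share was 33.6% and that of Gm5662 was at its lowest. These shares depend on how reads of shared sequence were divided between the copies. Gm4027, BB287469 and Gm2056 together made up the small remainder, and Gm2056 ran between 0.954% and 1.45%.

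**Figure D2:**
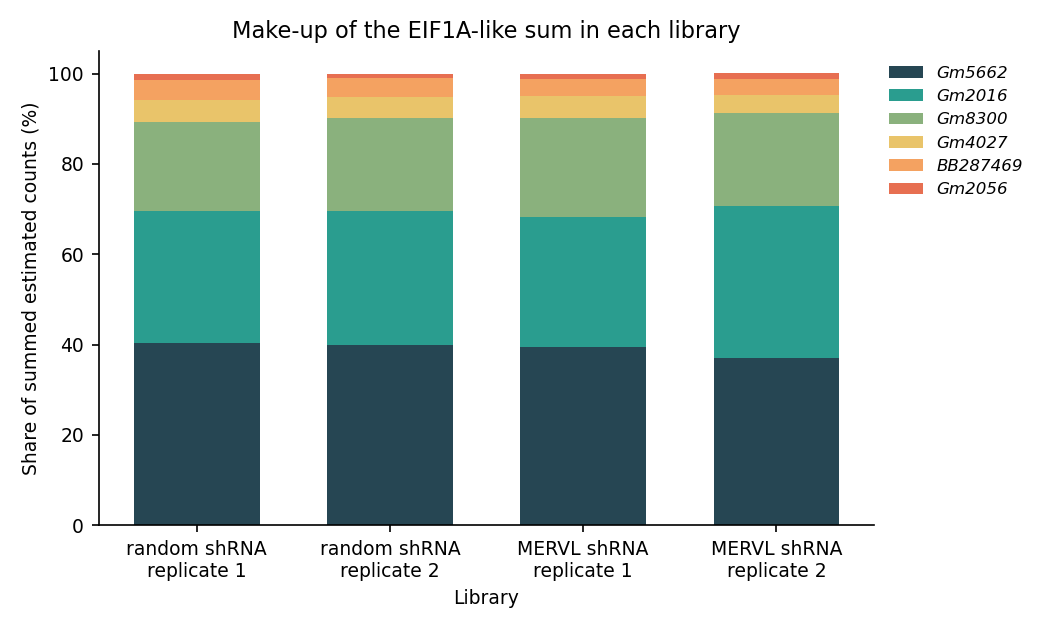
Share of the summed estimated counts of the 6 measured EIF1A-like genes (%) that each gene supplied, 1 bar per library. Gm5662, Gm2016 and Gm8300 fill most of every bar, and Gm2016 is widest in MERVL shRNA replicate 2, at 33.6%.

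Levels of different genes were compared as CPM per kb of annotated exon. In random shRNA replicate 1, Gm5662 stood at 230.5, Gm2016 at 173 and Gm8300 at 111 CPM per kb. Next came Gm2056 at 34.9, Gm4027 at 28.1 and BB287469 at 24.4 CPM per kb. Eif1a stood at 62.9 and Eif1ax at 31.8 CPM per kb in that library, below 3 of the listed genes. In random shRNA replicate 2, Gm5662 at 63.1 and Gm2016 at 48.4 CPM per kb lay between Eif1a at 66.1 and Eif1ax at 32.4, and Gm8300 stood at 31.9. In MERVL shRNA replicate 1, Gm5662 at 44.5 and Gm2016 at 33.9 again lay between Eif1a at 64.6 and Eif1ax at 33.8, and Gm8300 stood at 24.2. In MERVL shRNA replicate 2 the values were 26.4 for Gm5662, 25.0 for Gm2016 and 14.4 for Gm8300, all below Eif1a at 63.0 and Eif1ax at 32.0 CPM per kb. Gm5662, Gm2016 and Gm8300 ranked in this order in all 4 libraries. Gm4027 was above BB287469 in all 4 libraries, and Gm2056 changed places with them between libraries. Within each of these trios, neighbours differed by less than the spread between the controls. Exon lengths come from the reference annotation, which may differ from the one used for counting, and for Gm2056 cover its coding sequence alone.

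The canonical genes had near-level values in the 4 libraries. Eif1a gave 262 and 276 CPM with random shRNA and 269 and 262 CPM with MERVL shRNA (log2 fold change -0.02 ± 0.14, edgeR adjusted p = 0.973). Eif1ax gave 167 and 170 CPM against 178 and 168 CPM (0.04 ± 0.13, edgeR adjusted p = 0.932). The groups overlapped in both genes. The canonical pair summed to between 430 and 447 CPM in the 4 libraries, a range within which the EIF1A-like sum never lay.

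Eif1, which works beside eIF1A in start codon selection, gave 485 and 326 CPM with random shRNA and 287 and 319 CPM with MERVL shRNA (-0.42 ± 0.22, edgeR adjusted p = 0.454). Its paralog Eif1b had a log2 fold change of -0.21 ± 0.16 (edgeR adjusted p = 0.639). Eif1ad, which carries an eIF1A-like domain, had -0.13 ± 0.17 (edgeR adjusted p = 0.8). Of 48 translation initiation genes tested, edgeR called 0 higher and 0 lower, DESeq2 and limma-voom also called 0, and 1 was lower and 0 higher at an unadjusted p under 0.05. Of the features it gave an adjusted p, DESeq2 called 1.13% lower and 0.5% higher, and limma-voom called 0.0% of all features either way. By edgeR, 8.92% of all features were lower and 4.69% higher at an unadjusted p under 0.05. The median log2 fold change of the 48 genes was 0.01. The lowest was Pabpc1, the poly(A)-binding protein that links the mRNA tail to the initiation complex, with 2871 and 2320 CPM in the controls and 1750 and 1736 CPM with MERVL shRNA (-0.57 ± 0.18, edgeR adjusted p = 0.329). Next by p were Eif4h, a helper of the RNA helicase eIF4A (-0.49, edgeR adjusted p = 0.387), and Eif5, which triggers GTP hydrolysis on the initiation complex (-0.54, edgeR adjusted p = 0.395). Without random shRNA replicate 2, edgeR called 12 of the 48 lower, beside 17.4% of all features, and 4 higher, beside 14.9%. Without random shRNA replicate 1 it called 0 lower, beside 7.28% of all features, and 4 higher, beside 6.77%.

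A protein search with Eif1a found 9 further EIF1A-like genes on chromosome 12, none of them listed above, and Eif1ax. With the 7 members they form a cluster of 16 genes at chr12:87494721-88324026, 829.3 kb long. Of the 9, 6 were rows of the count table and 5 had enough counts to be tested. All 5 had lower estimates with MERVL shRNA, from -1.93 to -1.45 with a median of -1.79. By edgeR, 5 of 5 were lower at an unadjusted p under 0.05, beside 8.92% of all features. Reads of shared sequence may be counted for these genes or for the members, so their values are not independent of the members' values. EdgeR and limma-voom called 0 of the 5, and both called 0.0% of all features lower. DESeq2 called Gm2035, where it called 1.13% of features lower, and gave Gm6803 no adjusted p.

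Gm8332 gave 150 and 39.1 CPM with random shRNA and 31.3 and 18.2 CPM with MERVL shRNA (-1.93 ± 0.60, edgeR adjusted p = 0.329). Gm5039 gave 88.8 and 24.0 CPM against 19.3 and 11.57 CPM (-1.87 ± 0.59). Gm2035 gave 26.6 and 11.59 CPM against 8.66 and 5.32 CPM (-1.45 ± 0.43). Each of these copies repeated the order of libraries seen in the members. Gm2075 (-1.79 ± 0.65) and Gm6803 (-1.504 ± 0.526) were lower in level, and Gm6803 did not exceed 1.85 CPM in any library. Gm21319 had 37.9 counts in random shRNA replicate 1 and at most 2 in the other libraries, too few to test. These 6 genes summed to 276 and 78.0 CPM with random shRNA and 61.6 and 36.4 CPM with MERVL shRNA. Their log2 ratio of means, -1.85, was close to the -1.99 of the members.

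The nearest 3 tested genes on each side of the cluster, chosen by position after values had been seen, had estimates between -0.21 and 0.43. Of these 6, 4 lay within 50.7 kb of it, while Cep128 and Gtf2a1 were 2674.5 kb and 3231.2 kb away. Snw1, a splicing factor gene 22.4 kb from the cluster on the Gm8300 side, gave 90.8 and 84.0 CPM with random shRNA and 98.2 and 97.8 CPM with MERVL shRNA (0.16 ± 0.13, edgeR adjusted p = 0.648). Adck1, 36.5 kb beyond the other end, gave 20.1 and 16.0 CPM against 18.2 and 19.7 CPM (0.07 ± 0.19, edgeR adjusted p = 0.911). Slirp, for a mitochondrial RNA-binding protein, had 0.20 ± 0.14, though its annotation overlaps those of Snw1 and Alkbh1 on the other strand. Alkbh1, for a nucleic acid demethylase, lay 50.7 kb away with a positive estimate of 0.43 ± 0.15 (edgeR adjusted p = 0.337). Beside the 6 measured members, the annotation has 62 genes in their span, the listed Gm2022 among them, and 49 of the 62 are pseudogenes. Of the 9 found in the count table, 5 were EIF1A-like and 4 were not. Those 4 had few counts: Gm10436 had 26.8 in random shRNA replicate 1 and at most 3 elsewhere, and Oog1, an oocyte-expressed gene, had 6.75 and 0 in the controls.

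**Figure D3:**
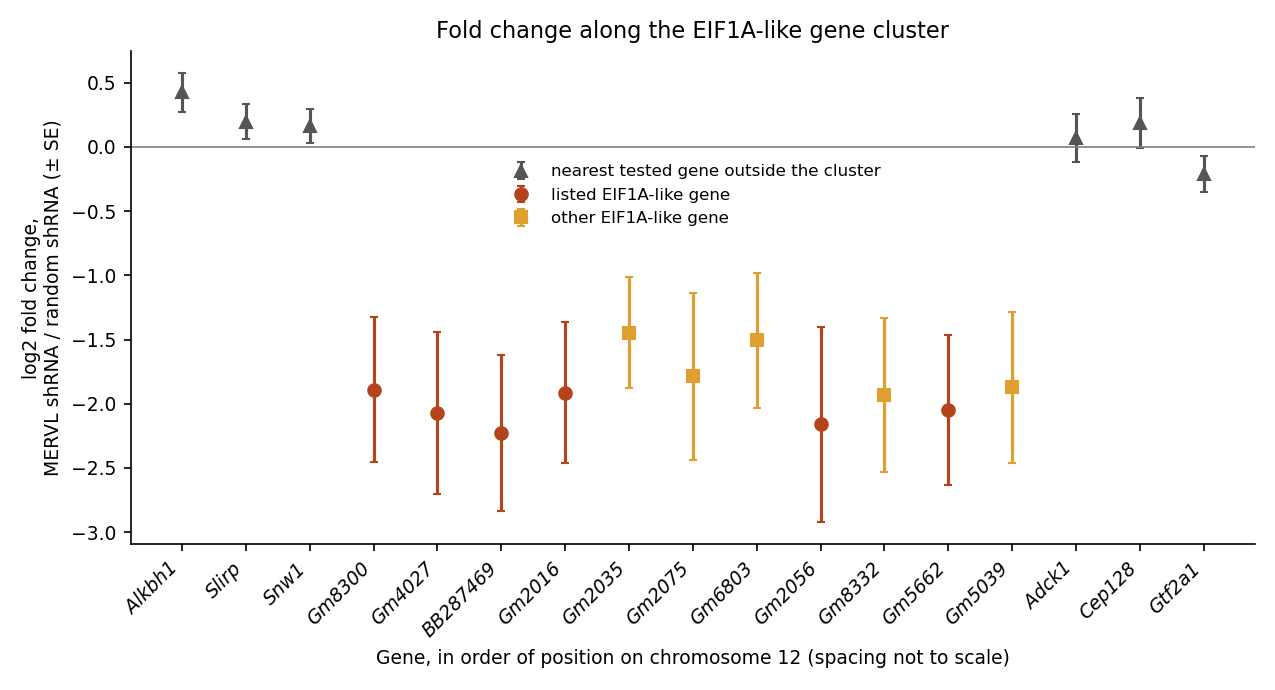
Log2 fold change, MERVL against random shRNA, with its SE for the tested EIF1A-like genes and the nearest 3 tested genes on each side, in order of position on chromosome 12 but not to scale: Cep128 and Gtf2a1 lie 2674.5 kb and 3231.2 kb from the cluster. The 11 EIF1A-like genes lie between -2.23 and -1.45, and the 6 genes outside lie between -0.21 and 0.43.

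The genes whose profile over the 4 libraries was most like that of the family sum were found by Euclidean distance between centred log2 CPM values, over 14632 genes. Gm20767 was the nearest at a distance of 0.07, with 88.2 and 24.5 CPM in the controls and 18.6 and 11.1 CPM with MERVL shRNA. The unnamed gene ENSMUSG00000060393 followed at 0.11, then the EIF1A-like Gm8332 (0.12) and Gm5039 (0.13). Ctf2 (0.17), which encodes a cytokine of the cardiotrophin family, and Arg2 (0.18), the mitochondrial arginase, completed the nearest 6. Arg2 gave 26.2 and 7.25 CPM in the controls and 4.43 and 2.94 CPM with MERVL shRNA. With only 4 libraries such likeness is weak: ranking by Pearson's r instead gave a list that shared 0 of the 6 genes.

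The authors also deposited a table of normalized scores, and there the controls stood together. Gm5662 scored 2839 and 3300 with random shRNA and 1260 and 719 with MERVL shRNA. Gm2016 scored 2079 and 2396 against 921 and 650, and Gm8300 scored 1440 and 1652 against 696 and 399. Random shRNA replicate 1 was thus slightly below replicate 2, at 0.847 to 0.874 of its score over the 6 genes, while in CPM it was 3.49-fold to 5.49-fold above. The controls also came together in genes outside the family. For Eif4g2 the ratio of replicate 1 to replicate 2 was 1.96 in CPM and 1.002 in scores. For Eif4a2 it was 0.57 in CPM and 1.01 in scores.

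Gm4027 scored 341 and 396 with random shRNA and 160 and 77 with MERVL shRNA, and BB287469 scored 298 and 352 against 120 and 67. Gm2056 scored 83 and 95 against 37 and 24. Both MERVL shRNA scores lay below both controls in 6 of 6 genes, as they did in 40.1% of all scored features, and mean scores were 2.82-fold to 3.48-fold higher with random shRNA. Eif1ax scored 2459 and 2452 against 2537 and 2415. In this table the estimates were smaller than in the counts, from -1.84 for BB287469 to -1.53 for Gm2016 on the log2(score + 1) scale.

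Limma with a mean-variance trend, used after seeing the data, called 5 of the 6 genes lower on these scores, with Benjamini-Hochberg adjusted p from 0.0266 for Gm2016 to 0.0432 for Gm8300. Gm4027 missed the threshold (limma adjusted p = 0.0558). This test called 14.5% of 17823 features lower. Limma without the trend called 2 of the 6, Gm2016 (adjusted p = 0.0399) and Gm2056 (adjusted p = 0.0459), beside 10.3% of features. The sources used here do not say how the scores were made. Calls on them therefore rest on an unstated step that brought the controls together and narrowed the spread that the tests measure.

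**Figure D4:**
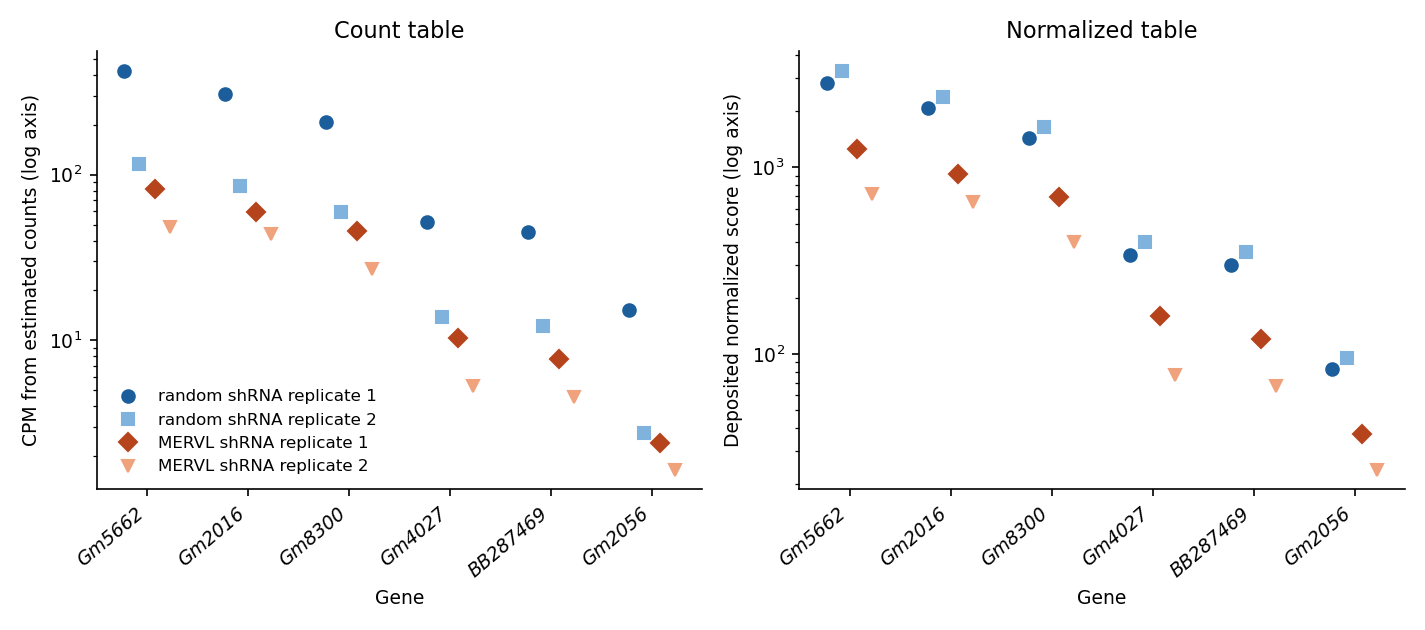
The 6 measured EIF1A-like genes in the 2 deposited tables, as TMM-scaled CPM from the estimated counts and as the authors' normalized scores, each on a log axis with 1 point per library. In the counts random shRNA replicate 1 stands 3.49-fold to 5.49-fold above replicate 2, and in the scores it lies slightly below it.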

How the data were processed

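Per the submitters' processing notes, Trim Galore, HISAT2 and the mm10 build were used. The sources used here do not give versions, the counting program, its use of strand or its handling of multimapping reads. The authors deposited estimated counts for 45773 features and, for 17823 of them, a normalized score. Symbols were matched to 42329 gene IDs. For count tests the estimated counts were rounded. Groups came from sample titles. The main test was edgeR 4.0.16 (R 4.3.3) quasi-likelihood with TMM scaling, filterByExpr, group as the only term, all 4 libraries and Benjamini-Hochberg adjustment over 16353 features, called at 0.05. Each group had 2 libraries, for which an exact permutation test of 1 value cannot give a two-sided p below 0.333. DESeq2 1.42.0, limma 3.58.1 with voom, other filters and scalings, a replicate block, each library left out and limma on the deposited log2(score + 1) were alternatives. Tests were checked on simulated data. Limma without a trend recovered no changed gene there, so a version with a mean-variance trend was added after seeing the data.

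The members and lists were chosen with earlier results of these data known. Named genes were the members, Eif1a, Eif1ax, Eif1ad, Eif1, Eif1b, the 4 initiation genes with the smallest p when none was called, up to 6 relatives and 6 neighbours by mean count, the 6 genes nearest in profile (at least 1 CPM on average), Zscan4c, Zfp352 and MERVL. Genes beside the cluster were added after values were seen. In place of the RefSeq proteins first planned, relatives came from a blastp 2.17.0 search of translated GENCODE M21 coding sequences (at least 40% identity over 70% of the length). The plan summed 7 members, and 6 were summed. MERVL copy names carry no positions, so distances to copies were not computed. Promoters came from RefSeq GRCm38.p6. CPM are TMM-scaled, and log2 profiles used a prior count of 1.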

Additional observations from a re-analysis of the deposited data

How the results depend on the processing

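The lower direction of the 6 genes held in every alternative run, with log2 fold changes between -2.89 and -0.45, and 0 were called higher in any. The number called lower, 0 in the main edgeR fit, was also 0 with a CPM filter, library totals, DESeq2 size factors in edgeR or limma-voom. Each of these fits called 0.0% of all features lower. With no filter on low counts the number was 6 (3.76% of features), and with DESeq2 it was 1 (1.13%). On the deposited scores it was 5 or 2 by limma with or without a trend (14.5% or 10.3%). With either MERVL shRNA library left out, gene estimates ran from -2.63 to -1.55, and with either control left out from -2.89 to -0.45. With a replicate block the number called lower was 6, beside 3.84% of features, at estimates of -2.04 to -1.67. The labels give no pairing beyond a shared number, and deviations of same-numbered libraries had r = 0.25 over 16353 features. Of the 48 initiation genes, 6 or 4 were called lower on the scores with or without a trend (14.5% or 10.3% of all features), and 0 to 12 with a library left out (0.0% to 17.4%). Called higher were 3 on the scores with a trend (13.1%) and 0 to 4 with a library left out (0.0115% to 14.9%). The family sum's log2 ratio ran from -2.62 to -0.77 with a library left out and from -2.03 to -1.57 under its other settings. At 60% identity the same 10 relatives were found. The cause of these shifts was not tested, and depth limits Gm2056 most, at 23.4 counts in 1 library.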
